A study of Mus musculus with 9 samples.

Results

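The oxidative phosphorylation complexes are the enzymes of the inner mitochondrial membrane that pass electrons to oxygen and make ATP. Their nuclear-encoded subunit genes were taken from the deposited gene table by symbol: names starting with Nduf and a, b, c, s or v, Sdha to Sdhd, names starting with Uqcr, names starting with Cox4 to Cox8, and names starting with Atp5. Of 18042 symbols in the table, 96 matched, and the 90 with at least 100 expected counts summed over the 9 libraries were kept as members. The other 6 symbols, Ndufs6b, Ndufb4b, Ndufab1-ps, Cox6a2, Cox6b2 and Cox8c, had between 0 and 74 summed counts, while the member with the fewest, Cox4i2, had 132. The symbol rule also took in 8 complex I assembly factors (the Ndufaf genes) and Ndufb4c, a retrocopy of a subunit gene, which were kept and are described as such. The members were therefore 38 complex I genes, the 8 assembly factors, 4 complex II genes, 8 complex III genes, 15 complex IV genes and 17 complex V genes. The table held 0 mitochondrially encoded genes, so the catalytic subunits made inside the mitochondrion were not analysed here.

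RNA was sequenced from tumour-associated macrophages, sorted as CD11b+ F4/80+ cells from subcutaneous tumours of MC38, a mouse colon carcinoma line. All mice were wild-type female C57BL/6 animals aged 6 to 8 weeks that had received 1000000 MC38 cells, and treatment into the tumour was given on day 9. The Control group (3 libraries) received an equal volume of solvent, the OMVs group (3 libraries) received OMVs and the IN@OMVs group (3 libraries) received IN@OMVs, both vesicle preparations at 12.5 µg of vesicle protein per mouse, or 625 µg per kg. Outer membrane vesicles, particles released by bacteria, are commonly abbreviated OMVs; what IN stands for is not explained in the labels used here. The labels call the 3 libraries of a group biological replicates without saying whether each was 1 mouse or a pool.

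Complex I (NADH dehydrogenase) and complex II (succinate dehydrogenase, also an enzyme of the citric acid cycle) feed electrons to ubiquinone. Complex III (the cytochrome bc1 complex) passes them to cytochrome c, and complex IV (cytochrome c oxidase) to oxygen. Complex V (ATP synthase) uses the resulting proton gradient. In macrophages, bacterial products are known to favour glycolysis and to restrain respiration, partly through nitric oxide made by Nos2 and itaconate made by Acod1, which inhibits complex II.

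The libraries held 16813230 to 17288322 expected counts each, and 13090 genes, all 90 members among them, passed the filter on low counts. Levels are given in CPM, that is, counts divided by the TMM-scaled library size and multiplied by 1000000. Macrophage markers (12 of 13 listed were in the table) summed to between 18100 and 25500 CPM in every library, and 0 of the 12 were at 0. Some marker lists of other cells differed between the groups without overlap. Neutrophil markers (10 genes) summed to 929 to 1350 CPM in Control, 696 to 918 in OMVs and 208 to 260 in IN@OMVs. Monocyte markers (8 genes) summed to 2350 to 2620, 1630 to 2020 and 1050 to 1390 CPM in the same order. Endothelial markers (8 genes) were highest in OMVs, at 39.3 to 47.3 CPM against 31.2 to 34.3 in Control and 31.2 to 35.5 in IN@OMVs. Epithelial or tumour cell markers (9 genes) summed to 37.0 to 42.3 CPM in IN@OMVs, below Control (48.9 to 65.1) and OMVs (45.3 to 51.9), and skeletal muscle markers (13 genes) to 5.88 to 7.66 CPM in Control, above OMVs (3.41 to 4.31) and IN@OMVs (3.38 to 3.93). The ranges of the T cell, B cell, dendritic cell, fibroblast, pericyte and smooth muscle and adipocyte lists overlapped between all 3 groups. Only 2 of the 9 epithelial and 5 of the 13 muscle genes passed the filter on low counts, so most genes of these lists had low counts. Cldn4 (epithelial) and Myh2 (muscle) were at 0 in every library. The part of the lists that differed in the results on the members was not tested. In bulk RNA, fewer cells of a type and less RNA per cell cannot be told apart.

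The library IN@OMVs 1 stood apart in the members. Their summed level was 8476 CPM there and 7122 to 7774 CPM in the other 8 libraries. As the deviation of each gene from its own mean log2 CPM over the 9 libraries, the median member lay at 0.22 in IN@OMVs 1, 0.01 in IN@OMVs 2 and −0.05 in IN@OMVs 3. In Control it lay at 0.03, −0.05 and −0.04, and in OMVs at −0.05, −0.09 and 0.02. IN@OMVs 1 was the highest of the 9 libraries for 72 of the 90 members (80%), against 27.3% of all genes tested. It was also the lowest library for 28% of all genes tested, but for 1.11% of the members. OMVs 2, at the other end, was the lowest library for 28 members (31.1%), against 8.95% of all genes tested. For named values and counts of calls in the IN@OMVs comparisons that moved by over 1.5 times without IN@OMVs 1, the value without it is therefore printed as well.

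**Figure D1:**
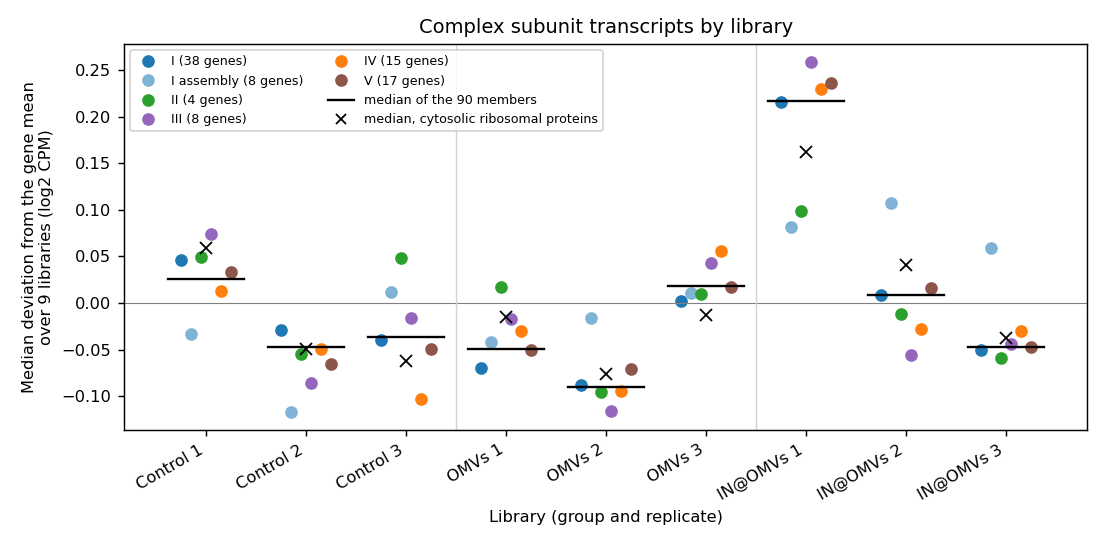
Median deviation of the subunit genes of each complex from their own mean over the 9 libraries (y axis, log2 CPM) in each library (x axis), with a black line at the median of all 90 members and a cross at the median of the cytosolic ribosomal protein genes. IN@OMVs 1 is the library where the members' line is highest, at 0.22, while the other 8 lines lie between −0.09 and 0.03.

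Other short-transcript genes were high in the same library. The median deviation in IN@OMVs 1 was 0.16 for 97 cytosolic ribosomal protein genes and 0.13 for 78 mitochondrial ribosomal protein genes. Among all genes tested it was 0.18 for the 373 genes with transcripts under 750 bases, 0.10 for those of 750 to 1500 bases, 0.02 for those of 1500 to 3000 bases and −0.03 for those over 3000 bases. Members with transcripts under 750 bases had a median of 0.26 there, those of 750 to 1500 bases 0.20 and those of 1500 to 3000 bases 0.10. In each of these 3 length classes the members thus lay above all genes of the same class in that library. The median member transcript was 861 bases long, against 2902 bases for all genes tested with a known length. IN@OMVs 1 also had the lowest TMM factor (0.9457) and the lowest sum of 10 fibroblast markers, 1820 CPM against 4700 to 6210 in Control and 3870 to 5030 in OMVs, with 0 of those markers at 0. The part of transcript length or of other cells in this library's values was not tested.

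**Figure D2:**
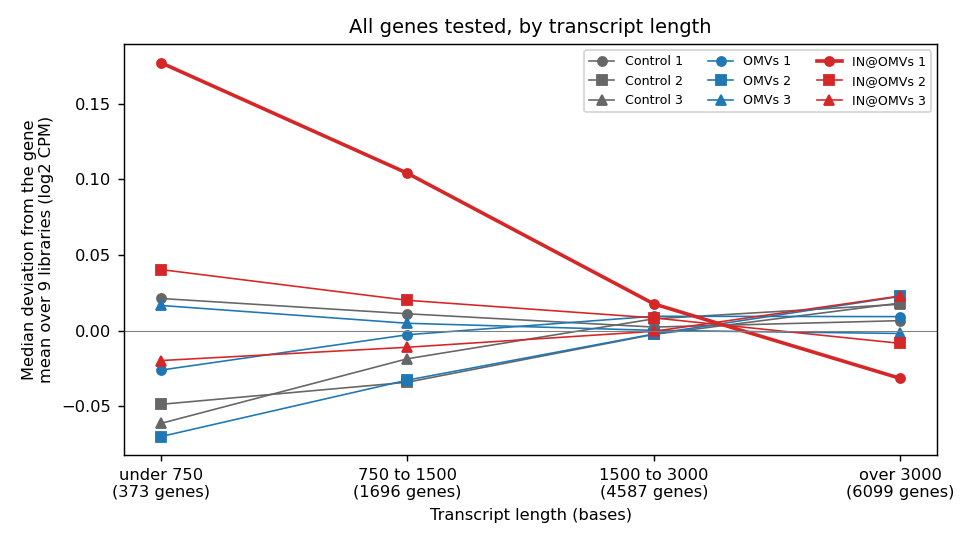
Median deviation of all genes tested from their own mean over the 9 libraries (y axis, log2 CPM) by transcript length class (x axis, bases), with 1 line per library. The thick red line is IN@OMVs 1, which falls from 0.18 in the shortest class to −0.03 in the longest.

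Subunit transcripts differed widely in level. Per kilobase of transcript, averaged over the 9 libraries, Atp5b, the catalytic beta subunit of ATP synthase, was the highest at 424 CPM per kb. Cox4i1, the common form of cytochrome oxidase subunit 4, followed at 378, and Atp5a1, the alpha subunit of ATP synthase, at 261. Among the electron entry points, the flavoprotein Sdha stood at 80.3, Sdhb at 84.4 and the large complex I subunit Ndufs1 at 28.7 CPM per kb. The lowest members were isoforms known from other tissues or conditions: Cox4i2 at 1.18 and Ndufa4l2 at 1.28 CPM per kb. The spread of a member over the 9 libraries had a median SD of 0.121 on the log2 CPM scale, against 0.15 for all genes tested and 0.111 for the 7841 genes with a mean of at least 20 CPM.

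Promoter windows were compared because known regulators of these genes (NRF1, ETS factors such as GABP, YY1, the estrogen-related receptors, SP1) have published motifs. RefSeq promoter windows of GRCm38.p6, from 250 bases before to 50 bases after a start, were matched for 74 of the 90 members, with 79 windows, and 5 motifs were searched on both strands. The NRF1 letters GCGCATGCG lay in 12.7% of member windows, against 3.46% of windows of genes with at least 100 counts and 1.75% of all 32851 windows. The ETS letters CCGGAAG lay in 24.1%, against 16.98% and 8.86%. The YY1 letters AAGATGGCG lay in 10.1%, against 2.84% and 1.40%. The receptor letters TCAAGGTCA lay in 2.53%, those of Atp5g3 and Sdhd, against 0.291% and 0.423%. The SP1 letters GGGGCGGGG lay in 13.9%, against 20.7% and 11.5%. These are matches of letters, not measured binding, and 38 of the 74 genes had at least 1 of the 5. The following stretches, read from those windows in the direction of transcription, show the NRF1 match of Ndufaf4, 1 receptor match and the ETS match in each orientation, with the match in capitals; they lie upstream of the start and outside annotated exons. Ndufaf4 is at chr4:24897945-24898004 on the plus strand, with the capitals 113 to 104 bases upstream; they mark overlapping matches to the NRF1 letters on both strands. Atp5g3 is at chr2:73911345-73911403 (minus strand, 52 to 44 bases upstream), Uqcr11 at chr10:80406856-80406912 (minus strand, 66 to 60 bases upstream) and Atp5e at chr2:174464172-174464228 (minus strand, 102 to 96 bases upstream).
Ndufaf4: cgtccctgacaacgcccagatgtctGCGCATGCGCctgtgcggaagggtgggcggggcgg
Atp5g3: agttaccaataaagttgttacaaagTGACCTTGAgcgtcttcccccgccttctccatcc
Uqcr11: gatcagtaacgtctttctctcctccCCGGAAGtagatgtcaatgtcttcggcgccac
Atp5e: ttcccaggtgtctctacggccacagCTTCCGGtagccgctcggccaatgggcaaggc

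The first comparison set OMVs against Control and asked how the macrophages differed after OMVs. With edgeR's quasi-likelihood test and Benjamini-Hochberg adjustment over the 13090 genes, 0 of 90 members were called higher and 0 lower at an adjusted p under 0.05. The background was small: 0.298% of all genes were called higher and 0.122% lower. At an unadjusted p under 0.05, 0 members were higher and 1, Ndufa4, was lower, where 4.70% and 3.74% of all genes were. DESeq2 called 0 members and 1.58% of all genes, limma-voom 0 members and 0.275%, and edgeR with the replicate block 0 members and 0.153%. The median log2 fold change of the members was −0.02, with 36 of 90 above 0, and that of all genes was −0.0005. The 95% confidence interval of the log2 fold change lay within 1.5-fold in either direction for 87 of the 90 members and within 1.2-fold for 51. It lay within 1.5-fold for 72.4% of all genes tested, low-count genes included.

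By complex, the median log2 fold changes in OMVs against Control were −0.03 for complex I, for the assembly factors, for complex II and for complex III, 0.04 for complex IV and −0.01 for complex V. All 4 complex II genes and all 8 complex III genes had values below 0, but the complex III values ran only from −0.11 to −0.002 and none was called. Groups did not overlap for 3 members in the higher direction (Ndufaf2, Ndufaf5 and Atp5k) and for 6 in the lower (Ndufa4, Ndufa11, Ndufb4, Ndufs8, Ndufaf7 and Uqcrc1), where 9.89% and 9.90% of all genes did so. Named members outside the fixed naming rule, here Ndufaf2, Ndufaf5, Ndufaf7, Atp5k, Ndufa11, Ndufb4 and Ndufs8 and later Ndufa12, Ndufa5, Ndufaf6, Uqcrb, Cox7b, Atp5j and others, were chosen after their values were seen.

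Ndufa4, a small subunit once assigned to complex I and now to complex IV, had the smallest p of the members in this comparison. Its level was 30.4, 28.1 and 28.2 CPM in Control, 23.1, 21.5 and 26.5 in OMVs and 29.9, 22.2 and 23.2 in IN@OMVs. All 3 OMVs libraries lay below all 3 Control libraries, and IN@OMVs 1 lay within the Control range while the other IN@OMVs libraries lay below it. The log2 fold change was −0.29 (SE 0.12, adjusted p = 0.578) in OMVs and −0.20 (SE 0.12, adjusted p = 0.418) in IN@OMVs against Control. Without IN@OMVs 1 the latter was −0.35 with an adjusted p of 0.0355, the 1 call among the members in any of the leave-one-out fits.

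The second comparison, IN@OMVs against Control, asked the same of IN@OMVs, and again 0 of 90 members were called in either direction by edgeR, where 3.32% of all genes were called higher and 3.24% lower. The smallest adjusted p among the members was 0.123. At an unadjusted p under 0.05, 12 members were higher and 1 lower, that is 13.3% and 1.11% of them, beside 10.2% and 9.57% of all genes. Without IN@OMVs 1 the counts were 1 higher and 5 lower, beside 12.7% and 14.3% of all genes. DESeq2, limma-voom and the replicate block each called 0 members, and 9.05%, 6.34% and 5.14% of all genes. The median log2 fold change of the members was 0.09, with 72 of 90 above 0, and that of all genes was −0.002. Without IN@OMVs 1 the median was −0.01 with 43 of 90 above 0, and 1 member was called where 12.4% of all genes were. The 95% interval lay within 1.5-fold for 86 members, beside 67.2% of all genes, and within 1.2-fold for 33.

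The third comparison, IN@OMVs against OMVs, set the vesicle groups beside each other. It also called 0 of 90 members by edgeR, where 1.10% of all genes were higher and 1.75% lower. The smallest adjusted p, 0.111, was that of Ndufa11. At an unadjusted p under 0.05, 11 members were higher and 0 lower, beside 7.46% and 6.89% of all genes, and 3 and 0 without IN@OMVs 1, beside 8.75% and 10.4%. DESeq2, limma-voom and the replicate block called 0 members each, and 4.94%, 2.70% and 2.34% of all genes. The median log2 fold change of the members was 0.10, with 78 of 90 above 0, and that of all genes −0.003. Without IN@OMVs 1 it was 0.02 with 50 of 90 above 0, and 0 members were called where 5.95% of all genes were. The 95% interval lay within 1.5-fold for 85 members, beside 69.2% of all genes, and within 1.2-fold for 34. Comparisons with Control share the Control libraries and those with IN@OMVs share its libraries, so the 3 sets of values are not independent of each other.

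**Figure D3:**
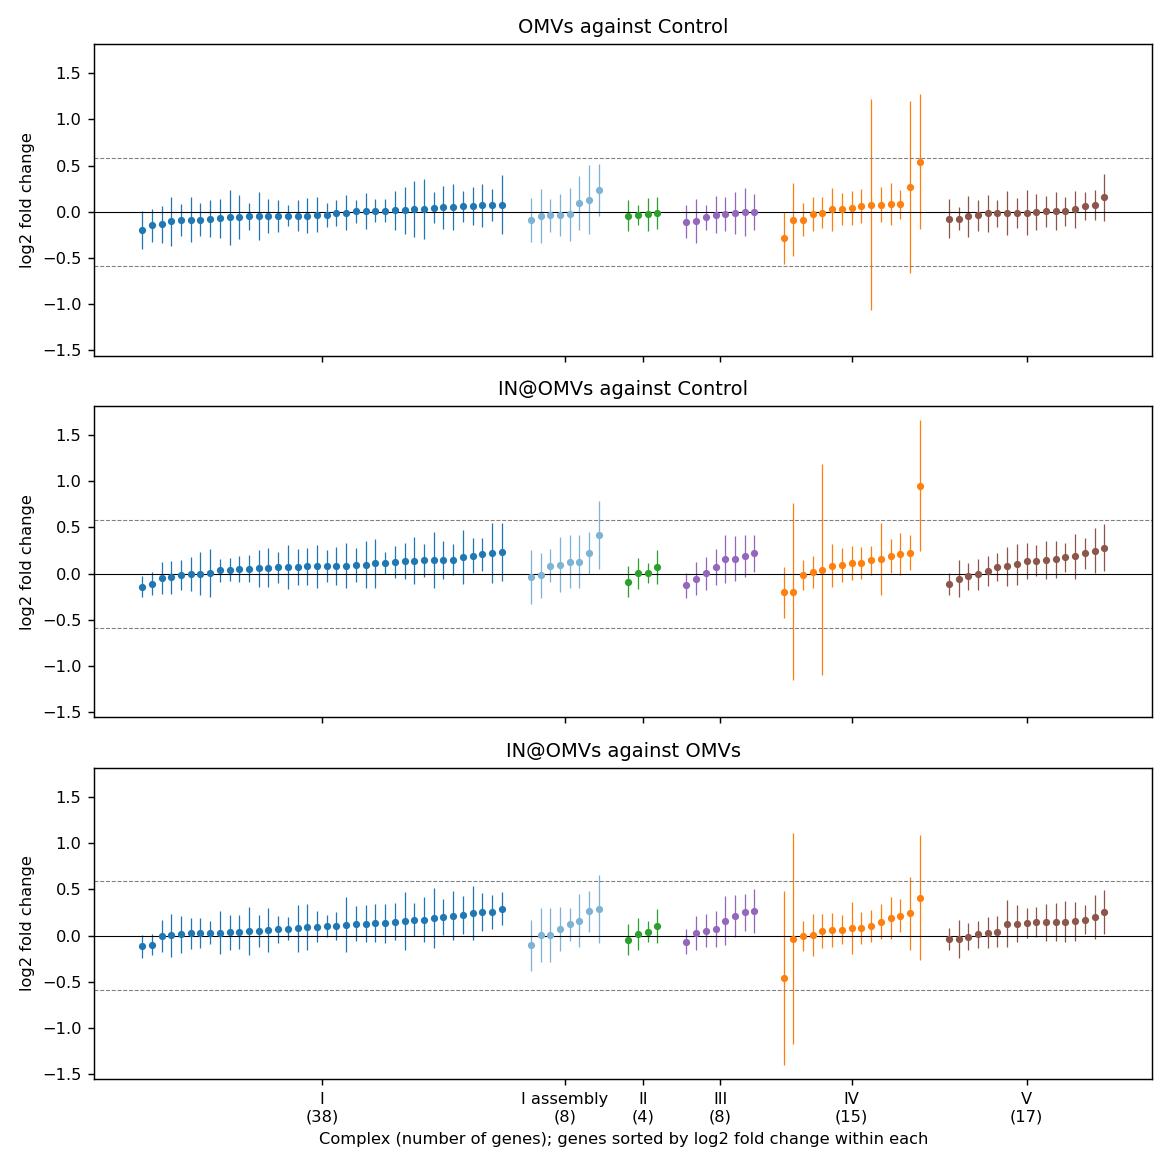
Log2 fold change of each member (y axis) with its 95% confidence interval in the 3 comparisons, sorted within each complex (x axis); dashed lines mark 1.5-fold in either direction. Most points lie within 0.3 of 0, and the widest intervals in complex IV belong to the isoforms with few counts. In IN@OMVs against OMVs the interval of Cox7a2, at 793 to 1385 counts per library, also reaches beyond 1.5-fold (−0.15 to 0.63).

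**Figure D4:**
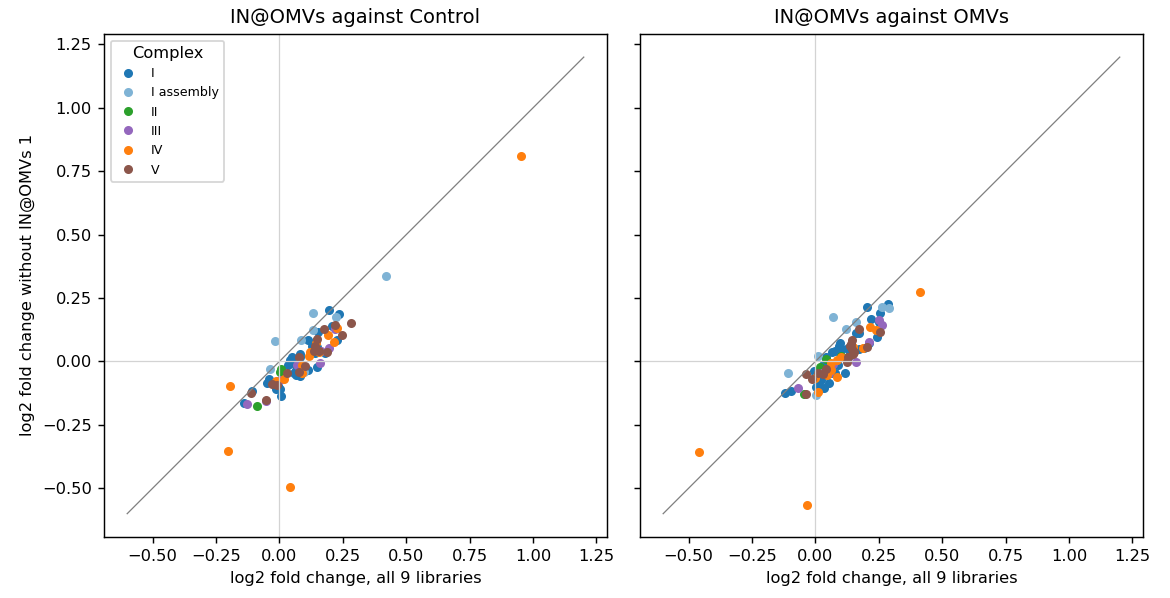
Log2 fold change of each member with all 9 libraries (x axis) and without IN@OMVs 1 (y axis), coloured by complex, for IN@OMVs against Control (left) and against OMVs (right); the grey diagonal marks equal values. Most points lie below the diagonal, and the medians move from 0.09 to −0.01 on the left and from 0.10 to 0.02 on the right.

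In complex I, which opens the chain by oxidising NADH, the 7 core subunits had a median log2 fold change of 0.04 in IN@OMVs against Control (4 of 7 above 0) and the 30 accessory subunits 0.09 (27 of 30 above 0). These were −0.04 without IN@OMVs 1 (0 of 7 above 0) and 0.001 (15 of 30). The core genes had a median transcript length of 1623 bases and the accessory genes 763. Ndufs1, the largest core subunit, which carries iron-sulfur clusters of the NADH-oxidising module, measured 79.0, 76.6 and 79.9 CPM in Control, 75.9, 73.8 and 79.0 in OMVs and 73.0, 68.0 and 72.9 in IN@OMVs. Every IN@OMVs library lay below every Control and every OMVs library. Its log2 fold change was −0.14 (SE 0.05, adjusted p = 0.161) against Control and −0.10 (SE 0.05, adjusted p = 0.443) against OMVs, so it was not called. Without IN@OMVs 1 the value against Control was −0.16 (adjusted p = 0.0887).

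Ndufv1, which binds NADH and the flavin, had −0.08 in OMVs and −0.04 in IN@OMVs against Control (adjusted p = 0.909 and 0.840), the latter −0.07 without IN@OMVs 1. The accessory subunits Ndufs4 and Ndufb8 had 0.07 and 0.09 in IN@OMVs against Control (adjusted p = 0.701 and 0.605), and −0.03 and −0.02 without IN@OMVs 1.

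Ndufa12 and Ndufa5 are accessory subunits of the matrix arm. Ndufa12 measured 35.0, 33.5 and 33.6 CPM in Control, 34.8, 31.4 and 32.7 in OMVs and 42.7, 40.3 and 35.0 in IN@OMVs. IN@OMVs 1 and 2 were high, and IN@OMVs 3 lay barely above the highest library of the other groups. The log2 fold change was 0.21 against Control (SE 0.08, adjusted p = 0.179) and 0.25 against OMVs (SE 0.08, adjusted p = 0.163), and 0.14 and 0.19 without IN@OMVs 1. Ndufa5 was 19.1, 16.6 and 17.1 CPM in Control, 17.3, 16.8 and 18.4 in OMVs and 19.8, 21.5 and 19.2 in IN@OMVs. Here IN@OMVs 2 was the highest library, and the log2 fold change against Control was 0.19 with all libraries and 0.20 without IN@OMVs 1 (adjusted p = 0.248 and 0.193).

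Ndufa11, a membrane-arm subunit, had the smallest adjusted p of all members, in the comparison with OMVs. It measured 30.3, 27.5 and 28.2 CPM in Control, 27.1, 24.2 and 26.5 in OMVs and 34.3, 31.1 and 29.7 in IN@OMVs. All IN@OMVs libraries lay above all OMVs libraries, and all OMVs libraries lay below all Control libraries. IN@OMVs against OMVs gave a log2 fold change of 0.29 (SE 0.08, adjusted p = 0.111) and 0.23 without IN@OMVs 1 (adjusted p = 0.13).

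The 8 assembly factors were the class whose median in IN@OMVs against Control moved least without IN@OMVs 1 among those above 0.1: it was 0.11 with that library and 0.10 without it, with 6 of 8 above 0 in each. A wider list of 52 tested assembly factors, these 8 included, had a median of 0.08 with that library and 0.03 without it. The median SE was 0.126 for the 8 and 0.0866 for all members. The median deviation of the 8 was 0.08, 0.11 and 0.06 in IN@OMVs 1, 2 and 3, and −0.03, −0.12 and 0.01 in Control. Ndufaf6, a factor needed to build complex I, measured 3.34, 3.22 and 3.80 CPM in Control, 4.31, 3.73 and 3.29 in OMVs and 5.11, 4.62 and 4.13 in IN@OMVs. IN@OMVs did not overlap Control but did overlap OMVs, and the log2 fold change against Control was 0.42 (SE 0.16, adjusted p = 0.194). Ndufaf4, whose promoter holds the NRF1 letters printed above, measured 14.5, 13.3 and 14.98 CPM in Control, 14.2, 12.7 and 14.9 in OMVs and 17.7, 15.2 and 17.2 in IN@OMVs. Its IN@OMVs libraries lay above those of both other groups, with a log2 fold change of 0.22 against Control (adjusted p = 0.252) and 0.26 against OMVs (adjusted p = 0.266).

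Complex II had a median log2 fold change of 0.01 in IN@OMVs against Control, with 3 of 4 genes above 0, and of −0.03 with 0 of 4 above 0 without IN@OMVs 1. Sdha, the flavoprotein that oxidises succinate, measured 246, 232 and 242 CPM in Control, 236, 222 and 241 in OMVs and 251, 217 and 209 in IN@OMVs. IN@OMVs 1 was the highest of the 9 libraries and IN@OMVs 2 and 3 the lowest, so the log2 fold change against Control was −0.09 (SE 0.07, adjusted p = 0.573) with IN@OMVs 1 and −0.18 (adjusted p = 0.0827) without it. The iron-sulfur subunit Sdhb had 0.07 and the membrane anchors Sdhc and Sdhd 0.01 and 0.004 against Control (adjusted p = 0.697, 0.955 and 0.983), and −0.01, −0.03 and −0.04 without IN@OMVs 1.

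In complex III the core proteins and the small subunits differed in sign in IN@OMVs against Control. The Uqcrc1 value there was within its SE of 0.08. Against OMVs, Uqcrc1 had 0.05 with all libraries and −0.05 without IN@OMVs 1, so its sign rested on that library. The core proteins Uqcrc1 and Uqcrc2 had log2 fold changes of −0.05 and −0.13 in IN@OMVs against Control (adjusted p = 0.784 and 0.290) and −0.16 and −0.17 without IN@OMVs 1. Uqcrc1 measured 166, 156 and 153 CPM in Control, 151, 142 and 147 in OMVs and 172, 145 and 140 in IN@OMVs, with OMVs below Control in every library. The Rieske iron-sulfur protein Uqcrfs1 had 0.003 (adjusted p = 0.990), and −0.07 without IN@OMVs 1. All 5 supernumerary subunits had values above 0, with a median of 0.16, and 3 of 5 with a median of 0.04 without IN@OMVs 1. Among them Uqcrb, which binds near the quinone site, measured 62.8, 65.1 and 65.9 CPM in Control, 58.1, 62.3 and 69.2 in OMVs and 84.3, 67.9 and 73.6 in IN@OMVs. Its IN@OMVs libraries lay above Control and overlapped OMVs, with a log2 fold change of 0.22 against Control (SE 0.09, adjusted p = 0.209), and 0.13 without IN@OMVs 1 (adjusted p = 0.305). Uqcr11, whose promoter stretch is printed above, measured 44.0 CPM in IN@OMVs 1 and 31.6 to 35.1 CPM in the other 8 libraries.

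In complex IV the 11 nuclear-encoded subunits in general use had a median log2 fold change of 0.12 in IN@OMVs against Control, and 0.04 without IN@OMVs 1. Cox4i1, the regulatory subunit that binds ATP, had 0.02 (adjusted p = 0.931), Cox5a 0.09 (adjusted p = 0.706) and the zinc-binding Cox5b 0.19 (adjusted p = 0.228). Leaving out IN@OMVs 1 made these −0.07, −0.04 and 0.11. Cox7b measured 84.9, 85.6 and 78.4 CPM in Control, 85.1, 83.4 and 94.0 in OMVs and 109, 89.9 and 92.4 in IN@OMVs. IN@OMVs lay above Control and overlapped OMVs, with a log2 fold change of 0.23 against Control (SE 0.08, adjusted p = 0.168), and 0.13 without IN@OMVs 1 (adjusted p = 0.237).

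The isoform pairs kept 1 dominant form in every library. Per kilobase, Cox4i1 made up 99.6% to 99.8% of Cox4i1 and Cox4i2 together, Cox6a1 99.5% to 99.9% of the Cox6a pair, Cox6b1 99.1% to 99.7% of the Cox6b pair and Ndufa4 96.4% to 99.0% of Ndufa4 and Ndufa4l2. Cox7a1, the heart and muscle form, made up 0.333% to 1.51%, beside 31.1% to 41.8% for Cox7a2 and 56.8% to 67.9% for the related supercomplex factor Cox7a2l. Cox4i2, the form known for induction by low oxygen in lung, rested on 8 to 22 counts per library. It measured 0.656, 0.643 and 0.461 CPM in Control, 1.09, 0.875 and 0.597 in OMVs and 1.35, 1.14 and 0.931 in IN@OMVs. IN@OMVs lay above Control in every library and overlapped OMVs. Its log2 fold change of 0.95 against Control (95% interval 0.24 to 1.66, adjusted p = 0.123) was the largest of any member, and it was 0.81 without IN@OMVs 1 (adjusted p = 0.189). Pericytes and smooth muscle are known for Cox4i2, and 9 of their 11 markers passed the filter on low counts, with 0 at 0. These markers summed to 120 to 139 CPM in Control, 108 to 151 in OMVs and 67.7 to 162 in IN@OMVs. The lowest sum, 67.7 CPM, was that of IN@OMVs 1, the library with the highest Cox4i2 level (1.35 CPM). The part of such cells in the Cox4i2 values was not tested.

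In complex V the medians of the catalytic F1 head and of the membrane and stalk part also differed in sign in IN@OMVs against Control. Of the 5 F1 genes 1 had a value above 0 in IN@OMVs against Control, with a median of −0.03 and a median transcript of 1170.5 bases. All 12 genes of the Fo and stalk part had values above 0, with a median of 0.15, and the median transcript of the 10 with a known length was 663 bases. The medians without IN@OMVs 1 were −0.09 and 0.04, with 1 of 5 and 9 of 12 above 0. Atp5a1 measured 689, 652 and 673 CPM in Control, 659, 625 and 630 in OMVs and 631, 636 and 599 in IN@OMVs. IN@OMVs lay below Control in every library and overlapped OMVs, with a log2 fold change of −0.11 against Control (SE 0.05, adjusted p = 0.304). Atp5a1 shares 129 exon bases with Haus1 on the opposite strand. Atp5b and the gamma subunit Atp5c1 had −0.03 and −0.01 (adjusted p = 0.870 and 0.971), each with IN@OMVs 1 as the highest of the 9 libraries, and −0.09 each without it. Atp5e, the short F1 epsilon subunit, was the F1 gene above 0, at 0.25 (adjusted p = 0.240) and 0.11 without IN@OMVs 1 (adjusted p = 0.375). It measured 98.1 CPM in IN@OMVs 1, against 65.4 to 76.4 in the other 8 libraries.

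Among the stalk genes, Atp5j (coupling factor 6) measured 76.95, 79.7 and 83.5 CPM in Control, 80.6, 84.7 and 87.9 in OMVs and 102, 92.2 and 85.2 in IN@OMVs. Its IN@OMVs libraries lay above Control and overlapped OMVs, with a log2 fold change of 0.22 against Control (SE 0.07, adjusted p = 0.126) and 0.14 without IN@OMVs 1. Atp5j shares 182 exon bases with Gabpa on the opposite strand, so without stranded counting reads that lie within that stretch cannot be told apart. The expected counts of Atp5j were fractional, a mark of shared reads, in 0 libraries. The 3 genes that encode the same proton-carrying c subunit, Atp5g1, Atp5g2 and Atp5g3, had 0.18, 0.08 and 0.14 against Control (adjusted p = 0.189, 0.598 and 0.440), and 0.13, 0.02 and 0.04 without IN@OMVs 1. Per kilobase, Atp5g2 and Atp5g3 made up 45.4% to 50.2% and 44.0% to 48.8% of the set, and Atp5g1 5.47% to 6.40% at its annotated length.

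**Figure D5:**
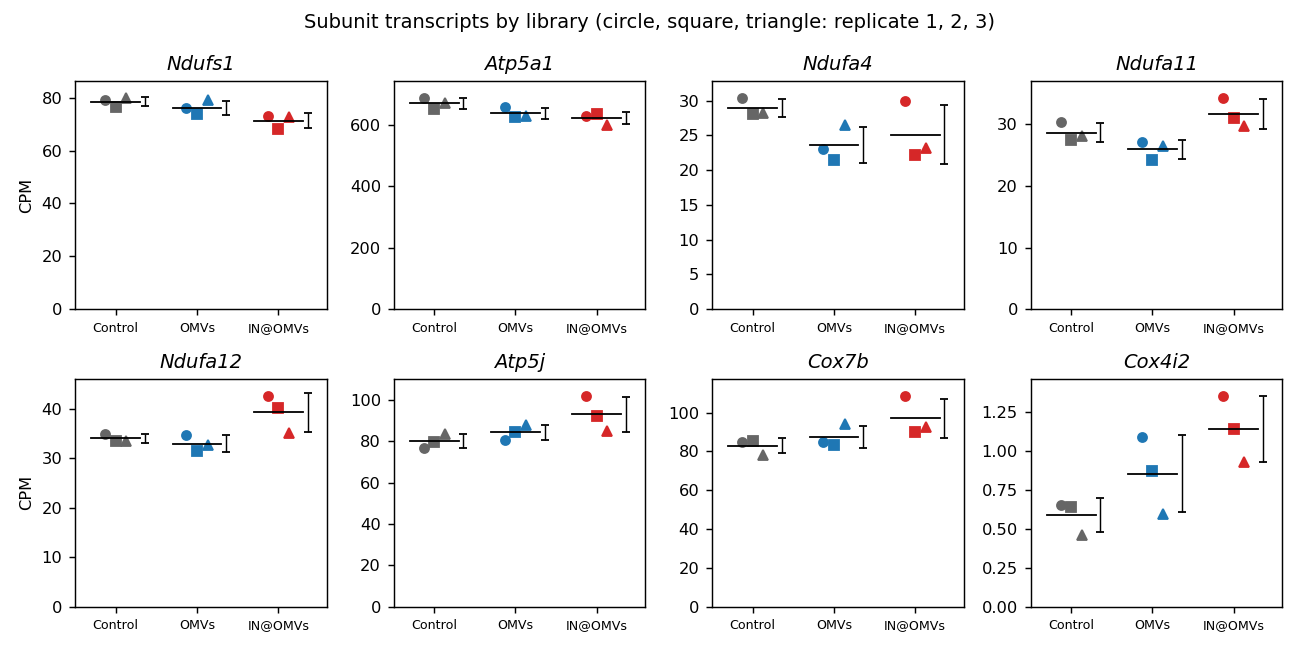
CPM of 8 members in each library (y axis, from 0) by group (x axis); symbols mark replicates 1, 2 and 3, the black line the group mean and the bar its SD over 3 libraries. Ndufs1 and Atp5a1 lie lower in IN@OMVs than in Control in every library, Ndufa12, Atp5j, Cox7b and Cox4i2 higher, and none of the 8 was called.

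Groups did not overlap between IN@OMVs and Control for 12 members in the higher direction and 3 in the lower (Ndufs1 and Atp5a1 among them), where 13.3% and 12.5% of all genes did so. That is 13.3% and 3.33% of the members. Between IN@OMVs and OMVs they did not overlap for 10 members in the higher direction and 1 in the lower (Ndufs1), where 8.86% and 8.72% of all genes did so. Across the 87 members with a known transcript length, the log2 fold change in IN@OMVs against Control and the length had a Spearman correlation of −0.506. It was −0.346 without IN@OMVs 1, and −0.148 over the 12755 genes with a length. For IN@OMVs against OMVs it was −0.38 in the members and −0.221 without IN@OMVs 1, and for OMVs against Control −0.212. These are correlations across genes of the same libraries, which are not independent of each other, and are given as a description.

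Other genes around the complexes were counted from fixed lists. In OMVs against Control 0 genes of any of the 8 lists were called by edgeR. In IN@OMVs against Control, 2 of 52 tested assembly factors (8 of them members) rose, a share near the 3.32% of all genes called higher. Higd1a, which associates with complexes III and IV, measured 37.0, 35.0 and 38.4 CPM in Control, 35.96, 40.9 and 39.4 in OMVs and 45.1, 47.2 and 45.6 in IN@OMVs, a log2 fold change of 0.32 against Control (SE 0.06, adjusted p = 0.0191, and 0.0426 in the replicate block). Coa5, a complex IV assembly factor, had 0.31 (adjusted p = 0.0394, and 0.0665 in the replicate block, where the call was lost). Higd1a was higher in every IN@OMVs library than in any other, and kept its call without IN@OMVs 1 (0.33, adjusted p = 0.01198).

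Of 18 genes of pyruvate dehydrogenase and the citric acid cycle 1 fell in IN@OMVs against Control, where 3.24% of all genes were called lower. This was Pdha1, the catalytic subunit of pyruvate dehydrogenase. It measured 153, 147 and 157 CPM in Control, 147, 148 and 153 in OMVs and 127, 134 and 134 in IN@OMVs. Its lowest and highest expected counts, 2067.08 and 2715.43, were fractional, a mark of reads shared with other genes, so its values are uncertain. Every IN@OMVs library lay below all others, with a log2 fold change of −0.21 against Control (SE 0.05, adjusted p = 0.0362, and 0.0642 in the replicate block). Of 19 electron carriers and other quinone reductases and 8 carriers of adenine nucleotides and phosphate and uncoupling proteins, 0 were called in any comparison. Of 78 mitochondrial ribosomal protein genes 1 rose against Control, where 3.32% of all genes were called higher. This was Mrpl32, at 0.30 (adjusted p = 0.0425, 0.0880 in the replicate block and 0.0514 without IN@OMVs 1). Of 97 cytosolic ribosomal protein genes 0 were called, with medians of 0.08 and 0.10 in IN@OMVs against Control and against OMVs, and 0.02 and 0.03 without IN@OMVs 1. In the fit without that library 12.4% of all genes were called against Control, in either direction. The calls in these lists were then 2 lower in the pyruvate dehydrogenase and citric acid cycle list and 3 lower among cytosolic ribosomal proteins. There was 1 lower each among electron carriers, the carrier and uncoupling list and mitochondrial ribosomal proteins. Mitochondrial ribosomal proteins then had 0 called higher.

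Of 20 regulators of mitochondrial gene expression and biogenesis 1 rose in IN@OMVs against Control, where 3.32% of all genes were called higher. This was Ppargc1b, a coactivator of respiratory genes. It measured 12.9, 12.04 and 11.2 CPM in Control, 13.3, 11.95 and 15.9 in OMVs and 18.5, 15.9 and 16.8 in IN@OMVs, a log2 fold change of 0.50 against Control (SE 0.12, adjusted p = 0.0421, and 0.0665 in the replicate block). IN@OMVs lay above Control in every library, while OMVs 3 lay close to IN@OMVs 2. The related Ppargc1a had 0 or 1 count in every library and was not tested. Tfam, which packages and transcribes mitochondrial DNA, had 0.02 (adjusted p = 0.922) against Control, and 0.07 without IN@OMVs 1. Leaving out IN@OMVs 1, 3 genes of this list were called higher against Control and 1 lower, where 12.4% of all genes were called in either direction. Ppargc1b was among those called higher (0.44, adjusted p = 0.0462).

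Among 4 macrophage metabolic genes set beside the complexes, 3 fell in IN@OMVs against OMVs, where 1.75% of all genes were called lower. This list, like the others, was chosen with earlier results of these data known. Nos2 measured 270, 237 and 244 CPM in Control, 311, 490 and 487 in OMVs and 183, 188 and 188 in IN@OMVs. Every OMVs library lay above and every IN@OMVs library below all 3 Control libraries, with a log2 fold change of −1.21 in IN@OMVs against OMVs (SE 0.15, adjusted p = 0.00436). Against Control, Nos2 had 0.78 in OMVs (adjusted p = 0.0960, and 0.0305 in the fit without IN@OMVs 1) and −0.43 in IN@OMVs (adjusted p = 0.159). Acod1, which makes itaconate, had −0.72 against OMVs (adjusted p = 0.0246) and −0.49 against Control (adjusted p = 0.0678, and 0.0135 without IN@OMVs 1). Hif1a, a transcription factor of the low-oxygen and glycolytic response, had −0.64 against OMVs (adjusted p = 0.0160). It fell against Control as well, by 0.49 on the log2 scale (adjusted p = 0.0298, and 0.0613 in the replicate block). AA467197, the gene of the Ndufa4-like protein NMES1, had −0.15 in OMVs and −0.12 in IN@OMVs against Control (adjusted p = 0.856 and 0.641), the latter −0.19 without IN@OMVs 1. Neutrophil and monocyte marker sums were lowest in IN@OMVs too, as given above, and their part in these values was not tested.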

How the data were processed

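The authors' deposited table holds expected counts per gene symbol and library, a unit inferred because whole numbers made up only 88.8% to 89.6% of each column and column totals differed. The submitters' processing notes name RSEM, Bowtie2 and BWA and the builds mm9 and hg19, without roles or versions. RNA was extracted with TRIzol and libraries prepared with oligo-dT beads, per the labels' protocols; no source used here gives the strandedness.

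Expected counts were rounded and fitted for all genes with edgeR 4.0.16 (R 4.3.3): TMM factors, filterByExpr, a quasi-likelihood test over all 9 libraries with 6 residual degrees of freedom, and Benjamini-Hochberg adjustment over 13090 genes within each comparison, threshold 0.05. DESeq2 1.42.0 and limma 3.58.1 (voom) were alternatives, with other scalings, no filter, 2-group fits, the replicate block and each library left out. Deviations use log2 CPM with a prior count of 2. Transcript lengths are those of principal transcripts in GENCODE vM21 and promoters those of RefSeq GRCm38.p6. The code was tested on simulated data.

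Members, gene lists and roles were chosen with earlier results of these data known. The naming rule took every called member, a fixed set of core subunits and isoforms, up to 4 called genes per list and 7 fixed genes; Cox8b was not analysed here. The values of 1 core subunit are not reported here, though it is counted among the members. P-values measure only the spread between these samples. Fractional expected counts, which mark shared reads, occurred in 7 members and in all 9 libraries for Ndufb4, Ndufb4c and Ndufb11, whose values are uncertain. Exons of 16 members overlap another gene.

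Whether replicate numbers pair libraries was checked by the correlation of deviations from group means. Same-numbered Control and OMVs libraries gave 0.53, 0.37 and 0.12, and same-numbered Control and IN@OMVs libraries 0.45, 0.31 and 0.15. All exceed 0.1, but libraries with different numbers reached similar values. OMVs 2 with Control 3 gave 0.35 and IN@OMVs 2 with Control 3 gave 0.36, so whether the numbers mark pairs stayed uncertain. Same-numbered IN@OMVs and OMVs libraries gave 0.073, 0.51 and −0.37. The main fit used no pairs, and the replicate block is given beside it as an alternative.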

Additional observations from a re-analysis of the deposited data

How the results depend on the processing

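Under DESeq2, limma-voom, other size factors, no filter, 2-group fits and the replicate block, 0 members were called in each comparison. The members' median log2 fold change stayed from −0.02162 to −0.01456 (OMVs against Control), from 0.07986 to 0.09029 (IN@OMVs against Control) and from 0.08369 to 0.1026 (IN@OMVs against OMVs). With the replicate block these medians were −0.01505, 0.08364 and 0.09528. Among the members the block changed 0 calls; among the listed genes the changed calls are those given above.

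Leaving out each library in turn, the medians ran from −0.04735 to 0.0101, from −0.009145 to 0.1518 and from 0.01802 to 0.1542 in the same order. Members called lower in IN@OMVs against Control ranged from 0 to 1 (Ndufa4, without IN@OMVs 1), and the other counts of called members stayed at 0. Of 288 complex medians over all settings, 6 moved by more than the spread of the libraries' member medians (0.0893), each without IN@OMVs 1, and 15 changed sign; the cause was not tested. Over all genes, leaving out IN@OMVs 1 raised the calls in IN@OMVs against Control from 858 to 1635 and in IN@OMVs against OMVs from 373 to 786, and DESeq2 gave 207 calls in OMVs against Control where edgeR gave 55 and the block 20. Members at a few counts, such as Cox4i2, have intervals too wide to show a 1.5-fold difference.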
